A study of Homo sapiens with 4 samples.

Results

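MALAT1, EPB41L4A-AS1 and SNHG7 are 3 long noncoding RNAs, genes whose transcripts are not translated into a known protein. They were found by symbol in a deposited gene table of 6434 genes, and all 3 stood among its 5210 genes with a single N1-methyladenosine (m1A) peak, called one-peak genes here, and none among its 1224 non-m1A genes. They were chosen by the supernatant and input values of these same data, in which the list of all 3 had stood out in an earlier look. Their values in that comparison are therefore a description without a test. Only the difference between the column letters, which was not used to choose them, is tested.

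The study measured poly(A)-selected RNA of HepG2, an established human hepatoma cell line cultured in DMEM medium, on arrays. The input group (n = 2) held the RNA before treatment, and the supernatant group (n = 2) held what an antibody against m1A had left behind. The gene table gives each of its 4 intensity columns a treatment and a letter, A or B. The supernatant and input columns of 1 letter are called a pair here, though no header says that they pair samples. The labels do not say what the letters mean or whether the replicates are separate cultures. The p-values therefore reflect only how far these samples differ, a spread that may be technical. Of 19 hepatocyte markers the table lists 4, and neither ALB nor AFP. It lists only genes with 1 m1A peak or none, so this does not show that the others were absent from the cells.

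In m1A a methyl group sits on the face of adenosine that pairs with uridine, so the mark blocks normal base pairing. A transcript that often carries the mark should be bound by the antibody and become scarcer in the supernatant. MALAT1 is an abundant nuclear RNA that gathers in nuclear speckles, the stores of splicing factors. Its mature end is cut by RNase P and holds an A-rich tract written in the genome in place of an added poly(A) tail, and the small RNA cut off beside it is mascRNA. EPB41L4A-AS1 and SNHG7 are host genes of H/ACA small nucleolar RNAs (snoRNAs), guides that direct the conversion of uridine to pseudouridine and are released from introns of their hosts.

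The annotated starts of the 3 genes are shown because the antibody binds a modified adenosine. The letters show how much adenosine there is where each transcript begins. All 3 symbols matched RefSeq (GRCh38.p14), with 2 starts for MALAT1. Each run has 50 bases before the start in lower case and the first 50 transcribed bases in capitals, read 5′ to 3′ on the gene's strand. The windows are chr11:65497688-65497787 and chr11:65498995-65499094 on the plus strand, chr5:112160476-112160575 on the plus strand and chr9:136728135-136728234 on the minus strand.

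MALAT1, upstream start: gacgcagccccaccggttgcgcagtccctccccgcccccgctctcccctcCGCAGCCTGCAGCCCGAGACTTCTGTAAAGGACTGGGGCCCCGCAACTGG
MALAT1, downstream start: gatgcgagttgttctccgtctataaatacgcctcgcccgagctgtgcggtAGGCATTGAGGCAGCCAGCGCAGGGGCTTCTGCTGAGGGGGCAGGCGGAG
EPB41L4A-AS1: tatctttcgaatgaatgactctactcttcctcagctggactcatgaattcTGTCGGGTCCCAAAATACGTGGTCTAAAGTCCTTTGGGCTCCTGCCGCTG
SNHG7: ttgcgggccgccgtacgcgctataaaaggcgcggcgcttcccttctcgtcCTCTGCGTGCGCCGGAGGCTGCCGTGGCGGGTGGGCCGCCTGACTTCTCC

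Adenosine made up 20% and 18% of the first 50 bases at the upstream and downstream starts of MALAT1, and 16% in EPB41L4A-AS1. In SNHG7 it made up 4%, a share that only 2.37% of the 35116 annotated starts of this table matched or went below, against a median of 20% over all starts. The letters TATAAA, searched on both strands of the 50 bases before the start, lay 30 bases before the downstream start of MALAT1 and 30 bases before the start of SNHG7. They were found before 3.47% of all starts. The longest unbroken run of C and T within 25 bases of the start was CTCTCCCCTCC at the upstream start of MALAT1 and CTTCCCTTCTC in SNHG7, both 11 bases long, and 7.27% of all starts had a run at least that long. In EPB41L4A-AS1 the longest such run had 7 bases inside this window, whose edge cuts it short (30.1% of all starts), and at the downstream start of MALAT1 it had 4 (84.7%). The table does not say where an m1A peak lay or where the array's probes bind, so none of these letters is placed at a modified base.

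RefSeq places other genes within or across each locus. The antisense RNA gene TALAM1 overlaps MALAT1 and the mascRNA gene lies inside it. EPB41L4A-AS1 overlaps the protein-coding gene EPB41L4A and holds the snoRNA SNORA13, and SNHG7 overlaps DIPK1B and holds SNORA17A and SNORA17B. No source used here gives the strand of the probes, so signal of an overlapping gene on the other strand cannot be told apart from that of the RNA itself. Of these overlapping genes the gene table lists DIPK1B, under its older symbol FAM69B, at intensities of 11.6 to 19.4.

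MALAT1 had less signal in the supernatants than in the inputs. Its deposited intensity, on a linear scale, was 662.6 in input A and 715.8 in input B, and 483.3 in supernatant A and 544.6 in supernatant B. The groups did not overlap, and the lower input stood 0.28 on the log2 scale above the higher supernatant. The means were 689.2 ± 37.6 in the input and 513.9 ± 43.3 in the supernatant (SD, n = 2). The supernatant/input ratio was 0.729 for the A columns and 0.761 for the B columns, so the supernatant held 27.1% and 23.9% less signal. The log2 difference was -0.42 ± 0.11 (SE of the fit over all genes).

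EPB41L4A-AS1 stood at nearly one level in all columns. Its intensity was 803.2 in input A, 827.2 in input B, 797.2 in supernatant A and 784 in supernatant B. Both supernatants lay below both inputs, but by a margin of only 0.01 on the log2 scale. The means were 815.2 ± 16.9 in the input and 790.6 ± 9.34 in the supernatant (SD, n = 2), and the log2 difference was -0.04 ± 0.09 (SE). The supernatant/input ratio was 0.993 for letter A and 0.948 for letter B.

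SNHG7 had nearly the same mean in both groups and a wide spread within each. Its intensity was 1152.9 in input A, 817.8 in input B, 1115.2 in supernatant A and 845.5 in supernatant B. The groups overlapped fully, and both columns lettered A were high whatever the treatment. The means were 985.3 ± 237 in the input and 980.3 ± 191 in the supernatant (SD, n = 2), with a log2 difference of 0.00 ± 0.23 (SE). Its ratios, 0.967 for letter A and 1.03 for letter B, lay on opposite sides of 1. Leaving out 1 column moved this difference to between -0.25 and 0.25, on either side of 0. Without input A it was 0.25, without supernatant B 0.20, without supernatant A -0.20 and without input B -0.25.

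**Figure D1:**
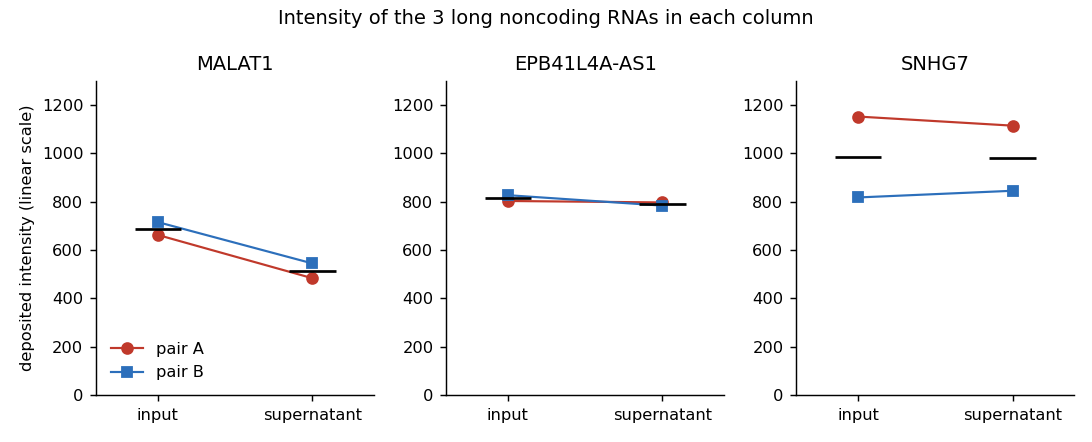
Deposited intensity (linear scale, vertical axis from 0) of each RNA in the input and the supernatant, with a line joining the 2 columns of each letter and a black bar at the mean (n = 2 per group). MALAT1 is lower in the supernatant of both pairs, EPB41L4A-AS1 stays between 784 and 827.2, and in SNHG7 the A columns, at 1115.2 and 1152.9, lie above the B columns, at 817.8 and 845.5.

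Over all 6434 genes, limma with Benjamini-Hochberg adjustment called 0 genes lower (0%) and 1 higher (0.0155%) after immunodepletion, with a threshold of 0.05 on the adjusted p. At an unadjusted p under 0.05 there were 130 genes in either direction (2.02%). The 1 gene called after adjustment was a non-m1A gene. The 3 RNAs were chosen by this comparison, so no test of them is read from it. Both supernatants lay below both inputs in 410 genes (6.37%) and above them in 1068 (16.6%). MALAT1 and EPB41L4A-AS1 belonged to the first kind, a count that the choice of these RNAs touches and from which nothing is read. With 2 columns a group, an exact two-sided permutation test of 1 gene cannot go below a p of 0.333.

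Among the 5210 one-peak genes MALAT1 had the 13th lowest log2 difference, EPB41L4A-AS1 ranked 817th and SNHG7 1687th. In 12 one-peak genes, MALAT1 included, both pairs had a ratio of at most 0.761, the higher of the MALAT1 ratios. In 14 one-peak genes, MALAT1 included, the lower input stood at least as far above the higher supernatant as in MALAT1, and in 2 the supernatants stood as far above the inputs. The log2 ratios of pairs A and B were 0.0608 apart in MALAT1, 0.0665 in EPB41L4A-AS1 and 0.0959 in SNHG7, against a median of 0.109 in the one-peak genes. Of the one-peak genes, 29.6%, 32.5% and 45.2% had pairs at least as close, in the same order, so the agreement between pairs was ordinary. All 3 were bright on the array, with an input intensity at or above that of 80.4%, 83% and 86% of the one-peak genes in the order MALAT1, EPB41L4A-AS1, SNHG7. Brightness depends on the probes as well as on the amount of RNA, so these shares do not rank the RNAs by abundance.

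**Figure D2:**
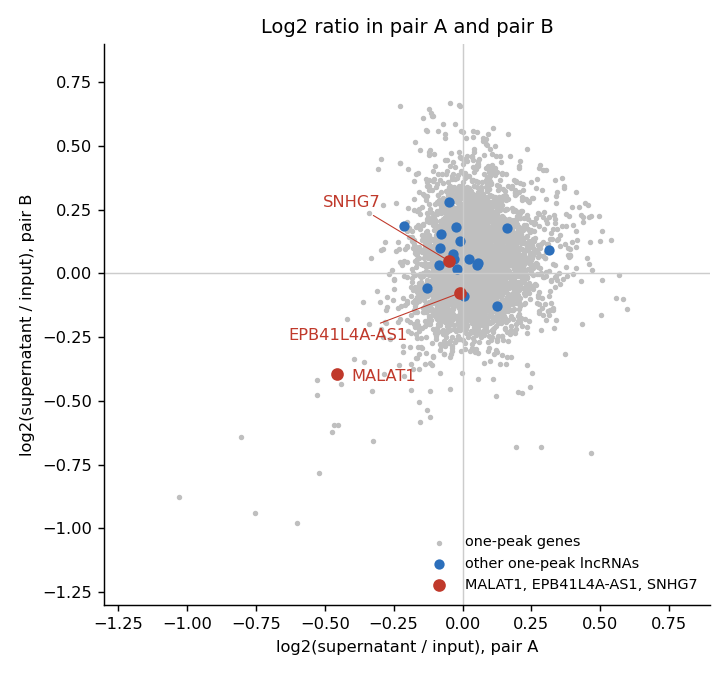
Log2 supernatant/input ratio in pair A (horizontal) against pair B (vertical) for the 5210 one-peak genes (grey), the 18 other one-peak long noncoding RNAs (blue) and the 3 RNAs described (red). MALAT1 lies at -0.46 and -0.39, apart from the dense centre, while EPB41L4A-AS1 at -0.01 and -0.08 and SNHG7 at -0.05 and 0.05 lie inside it.

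The authors' deposited table turns the ratio into a methylated fraction, 1 minus the mean of both ratios after division by a constant. It gives MALAT1 a fraction of 0.42, EPB41L4A-AS1 0.25 and SNHG7 0.23, against a median of 0.21 over its one-peak genes. Of the one-peak genes in the authors' deposited table, 12 one-peak genes have a higher fraction than MALAT1, 623 a higher one than EPB41L4A-AS1 and 1246 a higher one than SNHG7. The constant, 1.29, is the ratio averaged over the non-m1A genes. Recomputed from the intensities with this constant, the fractions were 0.423, 0.249 and 0.225 in the same order.

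The fractions of the 2 snoRNA hosts came almost wholly from that constant. With no divisor the fraction was 0.0298 in EPB41L4A-AS1 (0.00741 for letter A, 0.0521 for letter B) and -0.000601 in SNHG7 (0.0327 and -0.0339). The undivided fraction of MALAT1 was 0.255 (0.271 and 0.239). When only the 694 non-m1A genes at least as bright as the dimmest one-peak gene set the divisor, 1.05, the fractions were 0.291 in MALAT1, 0.0771 in EPB41L4A-AS1 and 0.0482 in SNHG7. A constant divisor cannot change the order of the 3 RNAs, but the pairs ordered the snoRNA hosts differently. With the 1.29 divisor, SNHG7 was above EPB41L4A-AS1 in the A columns (0.251 and 0.232) and below it in the B columns (0.2 and 0.266).

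**Figure D3:**
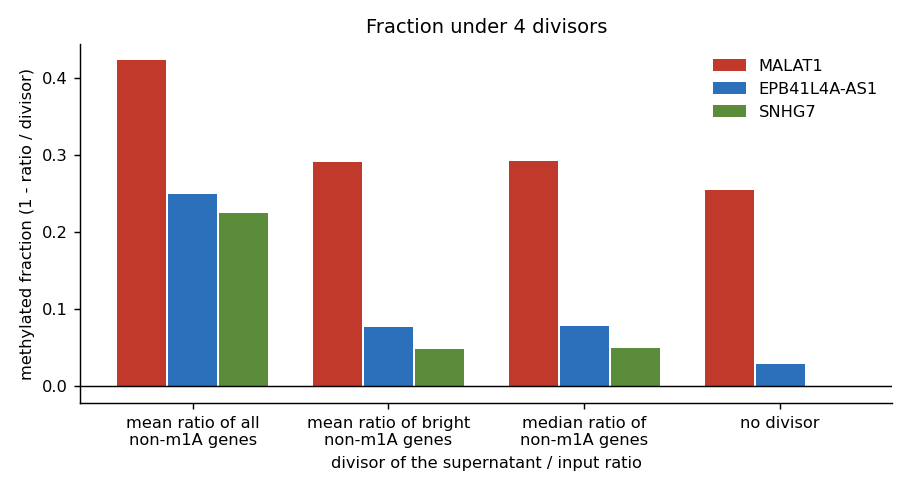
Methylated fraction (1 minus the ratio over the divisor, linear axis from 0) of the 3 RNAs under 4 divisors, from the mean of both pairs. MALAT1 goes from 0.423 to 0.255, while EPB41L4A-AS1 goes from 0.249 to 0.0298 and SNHG7 from 0.225 to -0.000601.

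The column letters gave another picture. SNHG7 was higher in both A columns than in both B columns, with means of 1134.1 ± 26.6 in A and 831.6 ± 19.6 in B (SD over the 2 columns of a letter, n = 2). Each letter is 1 input and 1 supernatant. This SD, and the SE and p by letter, therefore do not measure how far repeated pairs would vary. The higher B column stood 0.40 on the log2 scale below the lower A column. The log2 difference A minus B was 0.45 ± 0.07 (SE), 1.36-fold, with 0.50 between the inputs and 0.40 between the supernatants. In limma with treatment as a covariate its unadjusted p was 0.00358 in a fit across all genes and its adjusted p 0.172, so it did not pass. It passed under other settings. The limma adjusted p was 0.0175 among genes at least as bright as the dimmest one-peak gene, a restriction added after the data were seen. It was 0.000186 with 32 added to every intensity and 2.46e-10 with a trended prior. Many other genes passed there too, 351 higher in A and 322 higher in B among the bright genes. In the same order, 700 and 605 of all 6434 genes passed with 32 added, and 814 and 692 with a trended prior. Passing under these settings was therefore not particular to SNHG7.

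MALAT1 and EPB41L4A-AS1 did not pass in the fit by letter either. MALAT1 had a log2 difference A minus B of -0.14 ± 0.07 (SE, limma adjusted p = 0.284), with -0.11 between the inputs and -0.17 between the supernatants. EPB41L4A-AS1 had -0.01 ± 0.07 (SE, limma adjusted p = 0.943), at means of 800.2 ± 4.21 in A and 805.6 ± 30.5 in B (SD, n = 2). Across all genes limma called 0 higher in A (0%) and 0 higher in B (0%), with 1527 at an unadjusted p under 0.05 (23.7%). Both A columns lay above both B columns in 2076 genes (32.3%), SNHG7 among them, and below in 1874 (29.1%). In the one-peak genes 2.9% had a difference between letters as large as that of SNHG7, in either direction.

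Summed intensities of marker genes are given beside this difference by letter, without a test. The summed intensity of the 2 epithelial keratin genes KRT8 and KRT18 was 5927.1 and 6190.8 in input A and supernatant A and 7632.8 and 7516.4 in input B and supernatant B. That of the 4 hepatocyte markers was 152 and 154.5 in A and 202.1 and 193.7 in B, in the same order, and that of 5 mesenchymal markers, VIM, LGALS1, CAV1, CDH2 and TGFBI, was 11351 and 11136 in A and 11391 and 11040 in B. Of these 5, VIM was higher in both A columns (6569.1 and 6284.4 against 5850.7 and 5927.8), and the 4 others were higher in both B columns, as in CAV1 (757.3 and 752.6 in A, 966.9 and 912.8 in B). The 1 leukocyte marker listed of 2, CD68, stood at 30.1 and 35.0 in A and 42.4 and 40.0 in B, and neither endothelial marker is listed. The part of these markers in the difference of SNHG7 was not tested, and fewer cells of a type cannot be told apart from less RNA per cell in such bulk samples.

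Other long noncoding RNAs of the table were set beside these 3. RefSeq types 29 of the listed genes as lncRNA, 21 one-peak and 8 non-m1A. The 26 others had a median log2 change of 0.02 between supernatant and input, against 0.04 over all genes, and limma called 0 of them in either direction. Both ratios were at most 0.761 in 1 of the 29, MALAT1. Both supernatants lay below both inputs in 1 of the 26 others (3.85%), TMEM105, and above in 4 (15.4%), against 6.37% and 16.6% of all genes.

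TMEM105, a non-m1A gene, stood at 189.3 in input A, 186.2 in input B, 176.2 in supernatant A and 177.1 in supernatant B, a log2 change of -0.09 ± 0.08 (SE). FLVCR1-AS1, next to the heme exporter gene FLVCR1, had a log2 change of -0.09 ± 0.12, with ratios of 0.916 and 0.961 in pairs A and B. RUSC1-AS1 and C1QTNF9B-AS1 had lower log2 changes than MALAT1, -0.57 ± 0.47 and -0.49 ± 0.85 (SE), but were dim non-m1A genes. RUSC1-AS1 ran from 3.01 to 8.23 and C1QTNF9B-AS1 from 1.74 to 10.2 over the 4 columns, and the ratios of the latter were 1.79 in pair A and 0.284 in pair B. These are the 4 lowest of the others.

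The 4 highest of the others were MBNL1-AS1, C22orf24, C10orf111 and ARIH2OS. MBNL1-AS1, antisense to a splicing regulator gene, had a log2 change of 0.20 ± 0.12 (SE) and intensities of 68.4 to 85.8. The last 3 were non-m1A genes of at most 37.9 in any column, with log2 changes of 0.21 ± 0.10, 0.26 ± 0.22 and 0.35 ± 0.16 (SE). In the authors' deposited table the fractions of the 18 other one-peak lncRNAs ran from 0.11 to 0.27 with a median of 0.21, all below MALAT1's 0.42.

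**Figure D4:**
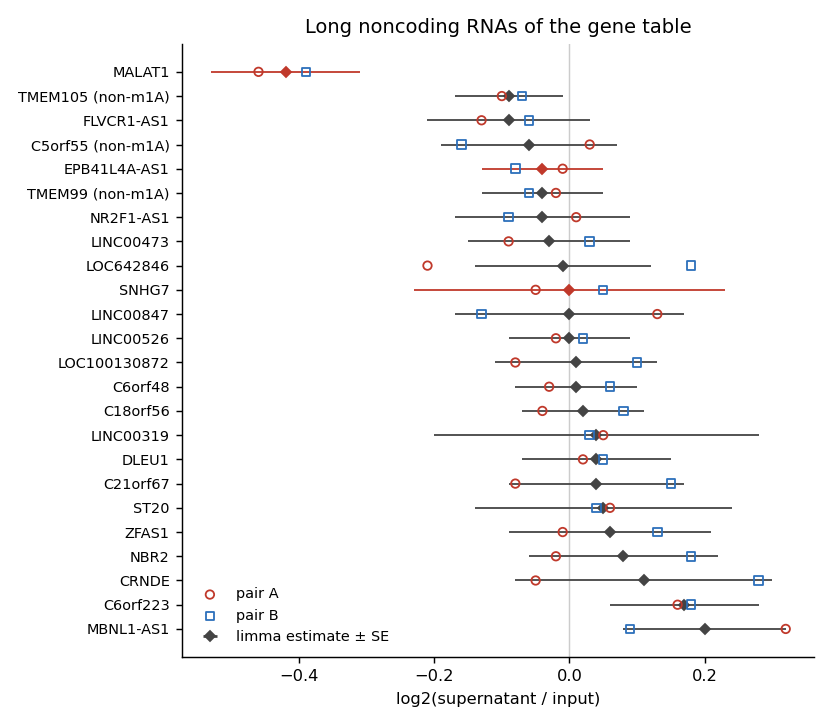
Log2 supernatant/input change of the 24 long noncoding RNAs at least as bright as the dimmest one-peak gene (the 3 described in red), with pair A as circles, pair B as squares and the limma estimate ± SE as diamonds. MALAT1 lies at -0.42 with both pairs near it, and the 23 others lie between -0.09 and 0.20.

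Of a written list of 57 long noncoding RNA symbols the table lists 5, the 3 RNAs and the tumour-linked CRNDE and the snoRNA host ZFAS1. ZFAS1 stood at 2307.2 in input A, 1849 in input B, 2295.6 in supernatant A and 2021.7 in supernatant B. CRNDE had 2239.8 and 1612.2 in the inputs and 2163.3 and 1955.2 in the supernatants. Both were higher in the A columns, like SNHG7, with log2 differences A minus B of 0.25 ± 0.08 and 0.31 ± 0.11 (SE, limma adjusted p = 0.187 and 0.204). Their changes between supernatant and input were 0.06 ± 0.15 and 0.11 ± 0.19 on the log2 scale (SE). Not every snoRNA host stood higher in A: C6orf48, now named SNHG32 and singled out after its values were seen, had a difference of 0.03 ± 0.07. LINC00319, also singled out, was the other way round, with 35.0 and 36.3 in A and 49.4 and 50.6 in B, a log2 difference of -0.49 ± 0.07 (SE, limma adjusted p = 0.172). Over the 26 others, both A columns lay above both B columns in 11 (42.3%) and below in 6 (23.1%), against 32.3% and 29.1% of all genes. With 26 genes, no tendency of long noncoding RNAs by letter is read from this.

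**Figure D5:**
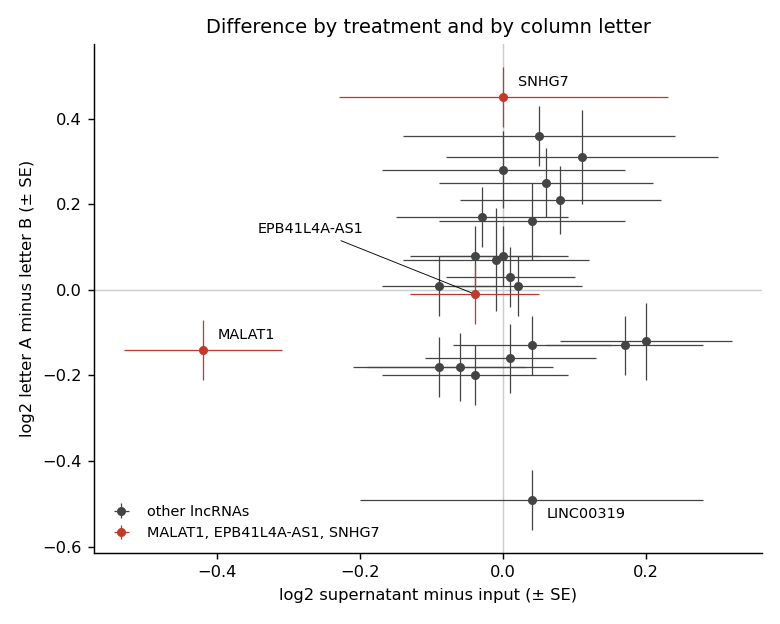
Log2 difference supernatant minus input (horizontal) against letter A minus letter B (vertical), each ± SE, for the same 24 long noncoding RNAs. MALAT1 stands apart along the treatment axis at -0.42, SNHG7 along the letter axis at 0.45, and LINC00319 at -0.49 on the letter axis.

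The genes with the pattern most like each RNA were found by the root mean square distance of log2 values centred per gene over the 4 columns, among genes within 2-fold of its mean intensity. For MALAT1 none of 1603 genes lay within 0.05, and among the nearest were DDRGK1, an endoplasmic reticulum gene, at 0.0986 and the deubiquitinase gene USP48 at 0.103. DDRGK1 stood at 419.3 in input A, 521.1 in input B, 367.9 in supernatant A and 380 in supernatant B, a log2 difference of -0.32. For EPB41L4A-AS1, 285 of 1333 genes lay within 0.05, nearest the clamp loader gene RFC4 at 0.00594, the heme synthesis gene UROD at 0.00713 and the replication gene GINS2 at 0.0107. For SNHG7, 8 of 1124 lay within 0.05. The nearest was SHMT2, a mitochondrial serine hydroxymethyltransferase gene, at 0.0102, with 819.2 in input A, 591.7 in input B, 802.8 in supernatant A and 610.4 in supernatant B, followed by SAMD11 at 0.0318 and IFRD1 at 0.039.

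Genes whose products act on these RNAs were read from the same fit of supernatant against input. That fit called only 1 of all 6434 genes (0.0155%), so a count of 0 in a short list says nothing particular about its genes. Of 10 listed genes for RNase P, RNase Z and CCA addition, which make the ends of MALAT1 and mascRNA, limma called 0 and the median log2 change was 0.04, as over all genes. RPP25 had -0.14 ± 0.09, POP7 -0.04 ± 0.10, TRNT1, which adds CCA to RNA ends, 0.09 ± 0.13 and POP4 0.15 ± 0.11 (SE). Of 11 SR and nuclear speckle protein genes 0 were called, with a median of 0.03. The spliceosome gene SF3B1 was at 709.4 and 669 in supernatants A and B and 791.3 and 776.8 in the inputs, a log2 change of -0.19 ± 0.09 (SE). SRSF6 had -0.07 ± 0.11 and TRA2B 0.07 ± 0.09.

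The genes of 5 proteins known to bind MALAT1 had a median log2 change of 0.06 and 0 were called. TARDBP had -0.06 ± 0.09, ELAVL1 0.03 ± 0.11, and the Polycomb subunit genes SUZ12 and EZH2 0.17 ± 0.21 and 0.19 ± 0.17 (SE). Of the snoRNP core proteins, which package snoRNAs but not all of them the H/ACA kind, 3 were listed and 0 called. NHP2L1 had -0.01 ± 0.10, NHP2 0.06 ± 0.11 and NOP10 0.10 ± 0.09 (SE). Of 8 snoRNP assembly factors 0 were called, with a median of 0.02. The ATPase gene RUVBL1 had -0.09 ± 0.09, ZNHIT6 -0.04 ± 0.14, SHQ1 0.10 ± 0.10 and RPAP3 0.25 ± 0.19 (SE).

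Spliced host transcripts of snoRNAs are often degraded by nonsense-mediated decay. Of 6 listed factors of that pathway 0 were called, and the median log2 change was 0.07. MAGOH, a subunit of the exon junction complex, stood at 514.8 in input A, 451.7 in input B, 406.5 in supernatant A and 393.2 in supernatant B, which did not overlap, and a log2 change of -0.27 ± 0.11 (SE). Its paralog MAGOHB had 0.27 ± 0.14 and NBAS -0.04 ± 0.15 (SE). In MAGOHB the groups did not overlap either, but the other way round, with 100.2 and 79.83 in the inputs and 110.5 and 105 in the supernatants. Both supernatants thus lay below both inputs in 1 of the 6 factors and above them in 1, against 6.37% and 16.6% of all genes. With 6 genes nothing is read from this. Probes of near-identical copies can be shared, so the MAGOH and MAGOHB values are uncertain.

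Chromosomal neighbours were read in the same way. Of the 10 annotated genes on each side of MALAT1 on chromosome 11, 5 were in the table, among them FAM89B with a log2 change of -0.13 ± 0.11, FRMD8 with -0.03 ± 0.14, SSSCA1 with -0.02 ± 0.15 and DPF2 with 0.03 ± 0.09 (SE). Next to SNHG7 on chromosome 9, FAM69B had -0.04 ± 0.26, the lipid enzyme gene AGPAT2 0.06 ± 0.15 and EGFL7 0.24 ± 0.16 (SE). Their log2 differences A minus B were -0.37 ± 0.20, -0.16 ± 0.13 and -0.26 ± 0.09 (SE, limma adjusted p = 0.31, 0.46 and 0.198). None passed, though the sign was opposite to that of SNHG7. FAM69B was dim and nearly level between the inputs (15.42 in A, 15.46 in B). In AGPAT2 supernatant A, at 217.3, stood above supernatant B, at 209.3. No neighbour of EPB41L4A-AS1 on chromosome 5 was in the table. None of the 8 neighbours had groups that did not overlap. Over all genes both supernatants lay below both inputs in 6.37% and above them in 16.6%, so with 8 genes nothing is read from this.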

How the data were processed

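Array labelling used an Affymetrix whole-transcript biotin kit, per the labels' protocols, and the submitters' processing notes name RMA without a version. A second deposited table gives 49395 probe sets on the log2 scale, with no gene named. No probe set had the 4 values of any of the 3 RNAs within 0.1% under any assignment of letters to replicate numbers, so that table gave no value here. The deposited gene table holds intensities on a linear scale, and no source used here states how the authors made them. Its ratio and fraction columns are the authors' own, per the file headers. Columns were grouped by header, and letters were not matched to replicate numbers.

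Log2 intensities were fitted with limma 3.58.1 (R 4.3.3) over all 6434 genes, by treatment and by letter with treatment as a covariate. Benjamini-Hochberg adjustment was used with a threshold of 0.05. The fits were checked on simulated data with changes planted only in genes brighter than the median. Those changes were far larger than any reported for the 3 RNAs, so the check does not show whether differences of their size would be found. Tables and plots used Python 3.11.15, pandas 2.3.3, NumPy 2.4.6 and matplotlib 3.10.9. Symbols were matched to RefSeq (GRCh38.p14): 5924 current, 478 older and 32 unmatched. The number of arrays limits the precision. The 3 RNAs and all gene lists were chosen with earlier results of these data known. Named genes were the 3 RNAs, up to 2 lowest and 2 highest per list, the 4 lowest and 4 highest other lncRNAs, the 3 nearest patterns per RNA and the listed neighbours. A few genes that this rule names are not reported here. The column letters are not said to pair samples. Alternatives covered the replicate block, scaling, low intensities, the prior, the divisor and each column left out.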

Additional observations from a re-analysis of the deposited data

How the results depend on the processing

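With the letter as a replicate block, the log2 change was -0.42 ± 0.07 in MALAT1, -0.04 ± 0.07 in EPB41L4A-AS1 and 0.00 ± 0.07 in SNHG7 (SE), and genes called numbered 0 lower and 1 higher, as without it. Same-lettered columns deviated together (correlation 0.451 across genes), but with 2 letters this does not show pairing. Centred on the non-m1A medians, MALAT1 was at -0.49 and EPB41L4A-AS1 at -0.11, and the median of all genes moved from 0.04 to -0.03. Leaving out 1 column gave MALAT1 -0.51 to -0.34, EPB41L4A-AS1 -0.07 to -0.02 and SNHG7 -0.25 to 0.25, and calls of 0 to 3 genes lower and of 1 to 32 higher; leaving out input A gave the 3 and the 32, and leaving out input B 11 higher. The 1 gene higher was lost, leaving 0, with 32 added to intensities, among bright genes and with a trended prior. A group left with 1 column is assumed to vary like the other.

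By letter, genes called were 605 higher in B and 700 higher in A with 32 added, 322 and 351 among bright genes, 692 and 814 with a trended prior and 1 and 4 after centring. SNHG7's A minus B was 0.43, 0.45 and 0.45 and passed limma under the first 3 (adjusted p = 0.000186, 0.0175 and 2.46e-10), and it was 0.42 to 0.45 without passing under centring, quantile normalization and no covariate (adjusted p = 0.111 to 0.169). MALAT1 and EPB41L4A-AS1 passed under none of these. With a column left out the fit by letter with the treatment covariate had no residual degrees of freedom, and one without the covariate was not run; SNHG7 stood at 0.40 to 0.50, MALAT1 at -0.17 to -0.11 and EPB41L4A-AS1 at -0.04 to 0.02.

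Fractions of MALAT1, EPB41L4A-AS1 and SNHG7 were 0.255, 0.0298 and -0.000601 with no divisor, 0.292, 0.0786 and 0.0498 with the median ratio and 0.291, 0.0771 and 0.0482 with the bright mean. Pair A alone and pair B alone gave 0.435 and 0.411, 0.232 and 0.266, and 0.251 and 0.2. Over 8 gene lists, 34 of 64 recomputed medians moved by more than the spread between pairs, within -0.06 to 0.14, and 0 of 80 counts of called members changed.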
